A study of Mus musculus with 6 samples.

Results

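The endoplasmic reticulum (ER) removes proteins that fail to fold by ER-associated degradation (ERAD), and 10 genes of that pathway are described here in CT26 cells, a mouse colon carcinoma line of BALB/c origin. They are Edem1, Edem2, Edem3, Os9, Sel1l, Syvn1, Derl1, Derl2, Derl3 and Herpud1. These 10 genes were chosen with earlier results of these data known. Every probe set to which the array annotation gives one of these symbols was taken, without regard to its value, which gave 24 of the 45037 probe sets tested. They were read in 3 arrays of shSep15 cells, transfected with a pU6-m3 vector that carries a short hairpin against Sep15 (current symbol Selenof), and in 3 arrays of control cells, transfected with the same vector left empty. Each array (Affymetrix Mouse430_2) held 1 RNA sample. A single hairpin was used. Neither clonality nor separate culture of the samples is stated in the labels, so p-values measure the spread between these samples only. The hairpin carried 19 nucleotides of the Sep15 cDNA, shown because they define the knockdown.
Sep15 hairpin target, as the labels give it: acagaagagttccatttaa

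In ERAD, the mannosidase-like EDEM proteins trim mannose from misfolded glycoproteins, and the lectin OS9 reads the trimmed glycan. OS9 hands its client to a membrane complex built from the adaptor SEL1L and the ubiquitin ligase SYVN1 (HRD1), which the derlins and HERPUD1 join. The client is pulled into the cytosol by the ATPase VCP and degraded by the proteasome. Most of these genes are known to be induced in the unfolded protein response (UPR), through the transcription factors XBP1, ATF6 and ATF4. The Sep15 protein resides in the ER, where it binds the glucosyltransferase UGGT1, a sensor of glycoprotein folding.

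Of the 24 probe sets, 12 were lower and 0 higher in shSep15 cells at a limma adjusted p under 0.05, and the median log2 difference (shSep15 minus control) was −0.37. Over all probe sets, 9.66% were called lower and 9.71% higher, and over those above the background level, a log2 of 6.02 set by receptor genes of the nose, 17.9% were called lower and 35.9% in either direction. Of the 24, 2 fell at least 2-fold, both of them Sel1l, where 4.43% of probe sets above background did so. The 24 share genes: 5 of the 12 calls came from Sel1l, and without Sel1l 7 of 19 were lower, with a median of −0.21. Counted by the brightest probe set of each gene, 4 of the 10 genes were lower (Sel1l, Os9, Herpud1 and Edem3) and 0 higher, against 12.8% of all 18193 genes lower and 12.2% higher. The 2 sets are unlike in level: both group means were below background in 7062 of the 18193 genes and in 0 of the 10. Counted by the mean of each gene's probe sets, 4 were lower again, with Derl1 in place of Edem3, against 13% of all genes. The 10 genes lie on 9 chromosomes, Os9 and Derl3 sharing chromosome 10. In bulk RNA, fewer cells of a kind and less RNA per cell cannot be told apart.

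**Figure D1:**
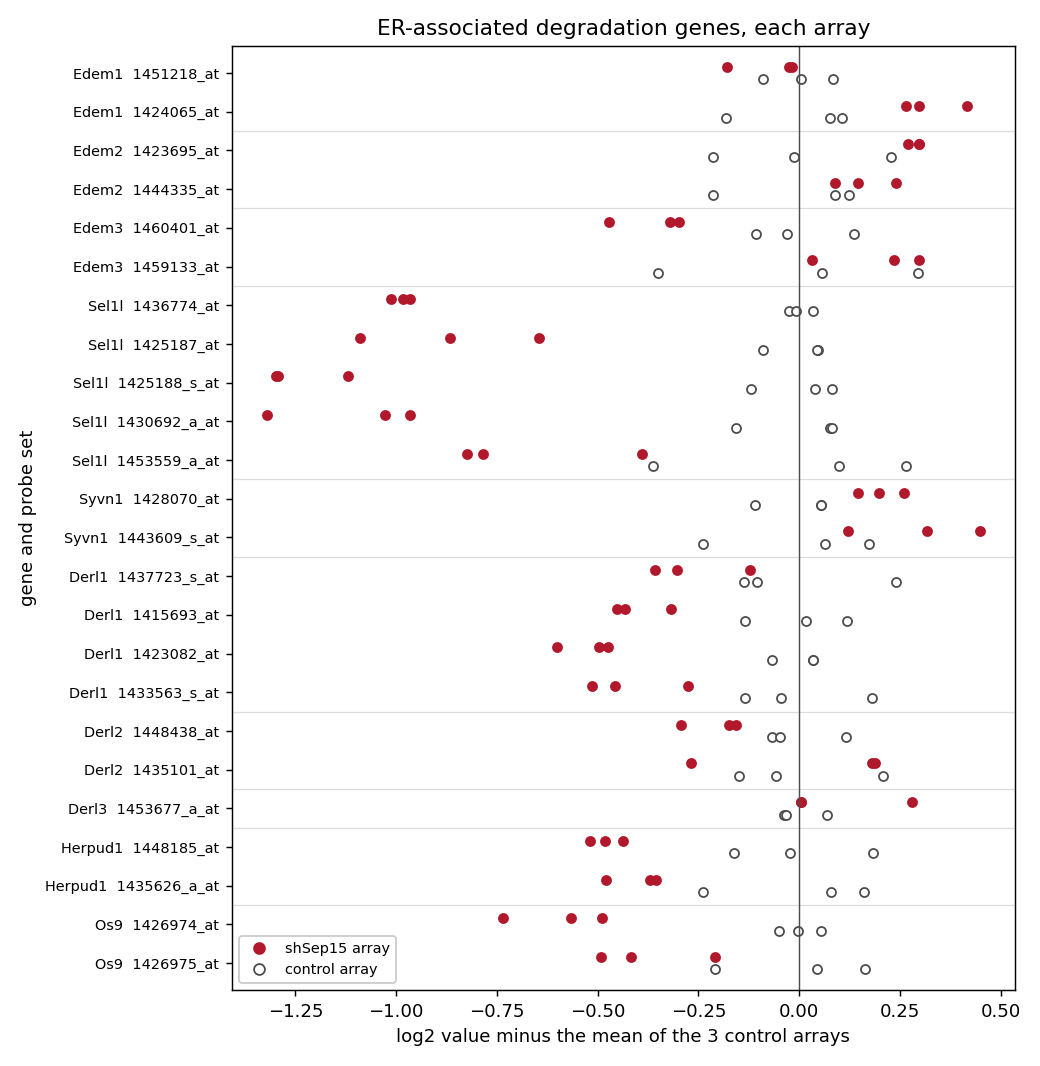
Log2 value of each array minus the mean of the 3 control arrays (x axis) for the 24 probe sets of the ERAD genes (y axis), with filled points for shSep15 arrays and open points for control arrays. All 3 shSep15 points lie left of all 3 control points in 13 probe sets, right of them in 3 and among them in 8, and the points of Sel1l lie farthest left.

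The groups were separated with shSep15 below in 13 of the 24 probe sets and with shSep15 above in 3, where 15.2% and 16.5% of all probe sets were. Set against the mean of the controls, the 24 probe sets had a median of −0.30, −0.46 and −0.30 on the shSep15 arrays, against 0.05, 0.06 and −0.11 on the control arrays. Control 3 was the lowest of the control arrays in 15 of the 24, a share that was not counted over all probe sets. Its median over all probe sets was a log2 of 5.85, against 5.83 and 5.84 on the other control arrays. Its 18S ribosomal RNA signal, at the 3′ probe set, was a log2 of 8.31, against 6.25 to 6.53 on the shSep15 arrays and 6.01 and 6.33 on the other control arrays. The part of this in the results was not tested. Without control 3, 11 of the 24 probe sets were lower and 1 was higher.

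As a check on the labels, the probe set of Selenof above background averaged a log2 of 9.48 ± 0.13 in shSep15 cells and 12.40 ± 0.05 in control cells (SD, n = 3 each). The difference of −2.92 left 13.2% of the control signal (limma adjusted p = 2.43e-07). The genes that define colon epithelium were largely missing. Of 11 markers, 3 were above background in shSep15 cells and 5 in control cells, and Cdh1, Cdx1, Cdx2, Vil1, Krt19 and Muc2 were below it in both. Their summed linear signal was 569 to 680 on shSep15 arrays and 946 to 1115 on control arrays, with 3 of 11 lower (Krt18, Krt20 and Lgals4). Of 8 fibroblast markers 3 were higher, by log2 differences of 1.35 (Pdgfra), 1.32 (Col1a1) and 0.64 (Col1a2). Another 3 were lower, at −3.36 (Pdgfrb, its shSep15 mean below background), −2.27 (Col3a1) and −1.72 (Dcn). Thy1 and Lum were below background in both groups. The fibroblast sums were 7803 to 10892 on shSep15 and 7228 to 8386 on control arrays. Col1a2 was the brightest in them, with mean log2 values of 12.78 in shSep15 and 12.14 in control cells. Of 8 leukocyte markers measured 3 were lower (Cd68, Lyz2 and Itgam, the last below background in both groups), with sums of 513 to 581 on shSep15 and 626 to 747 on control arrays, and the pan-leukocyte gene Ptprc was below background in both. Of 6 endothelial markers 0 were called, with sums of 225 to 239 on shSep15 and 229 to 235 on control arrays, and Pecam1, Cdh5, Tek, Tie1 and Emcn below background in both. The part of these markers in the ERAD results was not tested.

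Sel1l, the adaptor that holds the SYVN1 ligase and receives clients from the lectins, changed more than any other member, and all 5 of its probe sets fell. Its brightest probe set (1436774_at) read a log2 of 9.74, 9.79 and 9.77 on the shSep15 arrays, against 10.73, 10.79 and 10.74 on the control arrays. The arrays of each group lay close together, and the groups stood far apart. The log2 difference was −0.99 (SE 0.07, limma adjusted p = 2.95e-05), so that 50.4% of the control signal was left.

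A 2nd probe set of Sel1l (1425188_s_at) had the greatest fall among the 24. It read 9.03, 8.85 and 8.85 in shSep15 cells, against 10.23, 10.18 and 10.02 in control cells, a log2 difference of −1.24 (SE 0.10, limma adjusted p = 4.62e-05). The probe set 1430692_a_at fell by 1.10 on the log2 scale and 1425187_at by 0.87. The dimmest one, 1453559_a_at, read 7.35, 7.30 and 7.74 in shSep15 cells, against 8.23, 8.39 and 7.77 in control cells. Its groups were separated by little, because control 3 lay next to shSep15 3. Its difference of −0.67 (limma adjusted p = 0.0335) lost the call without shSep15 1, shSep15 2, control 1 or control 2 (limma adjusted p from 0.110 to 0.132). The other 4 kept their calls whichever array was left out, at log2 differences from −0.76 to −1.30. Averaged over its 5 probe sets, Sel1l was at 51.0% of the control signal (log2 −0.97, SE 0.10, limma adjusted p = 1.06e-04).

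Syvn1, the ubiquitin ligase that SEL1L stabilises, did not pass the test on either probe set, and both of its differences were above 0. The brighter probe set (1428070_at) read 9.54, 9.49 and 9.60 in shSep15 cells, against 9.40, 9.40 and 9.24 in control cells. All shSep15 arrays were above all control arrays, but the step was small (log2 0.20, 95% interval −0.01 to 0.42, limma adjusted p = 0.203). The other probe set (1443609_s_at) differed by 0.29 (95% interval −0.02 to 0.61) with overlapping groups.

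Whether the partners differed in response was asked within arrays, in a comparison chosen after the values were seen. The log2 value of Sel1l minus that of Syvn1, which has no meaning as a level, was 0.20, 0.30 and 0.16 on the shSep15 arrays, against 1.33, 1.39 and 1.51 on the control arrays. It was lower by 1.19 (SDs 0.07 in shSep15 and 0.09 in control, n = 3 each), with groups that did not overlap. The exact two-sided permutation p was 0.1, the smallest that this test allows with 3 against 3 arrays. It therefore cannot reach 0.05 however large the change, and the values and SDs carry the comparison. The same held for Sel1l minus Edem1, lower by 0.91 with p = 0.1 in the exact permutation test. In all, 4 such pairs were compared.

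Os9, the lectin that binds trimmed glycans and docks on SEL1L, was lower on its brighter probe set. That probe set (1426974_at) read 9.04, 8.79 and 8.96 in shSep15 cells, against 9.58, 9.48 and 9.52 in control cells. The groups did not overlap, and 66.1% of the control signal was left (log2 −0.60, SE 0.10, limma adjusted p = 0.0028). Its call held whichever array was left out. The dimmer probe set (1426975_at) differed by −0.37 (SE 0.14, limma adjusted p = 0.0974), with shSep15 1 level with control 2. Erlec1, the other ERAD lectin, was lower by 0.48 on its brightest probe set (limma adjusted p = 0.0145), and the change of Os9 minus Erlec1 within arrays was −0.12 (exact two-sided permutation p = 0.2).

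Of the EDEM genes, whose products trim mannose ahead of the lectins, only Edem3 had a called probe set, and the probe sets of Edem1 disagreed. Edem3 (1460401_at) read 9.56, 9.39 and 9.54 in shSep15 cells, against 9.995, 9.75 and 9.83 in control cells. The groups did not overlap, though the gap between them was narrower than the spread of the control arrays. The difference of −0.36 (SE 0.10, limma adjusted p = 0.0333) was called without control 2 and lost without any other array: without shSep15 1, 2 or 3 the limma adjusted p was 0.0605, 0.121 and 0.0797, and without control 1 or 3 it was 0.105 and 0.0637. The other probe set of Edem3, closer to background, differed by 0.19 with overlapping groups (limma adjusted p = 0.546). The difference between these probe sets in response was −0.55 (95% interval −0.95 to −0.16, limma adjusted p = 0.0759).

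Edem1 gave 10.36, 10.51 and 10.52 on its brighter probe set (1451218_at) in shSep15 cells, against 10.54, 10.62 and 10.45 in control cells. Those groups overlapped, with a log2 difference of −0.07 (95% interval −0.27 to 0.12). Its other probe set (1424065_at) read 10.25, 10.22 and 10.37 in shSep15 cells, against 10.03, 10.06 and 9.77 in control cells. There every shSep15 array was the higher, with a difference of 0.33 just outside the threshold (SE 0.10, limma adjusted p = 0.0531). It passed when only probe sets above background were tested (limma adjusted p = 0.0288) and after quantile normalization (limma adjusted p = 0.0247). The annotation gives both probe sets the same source accession. The change of the first minus the second within arrays was −0.40 (SE 0.09, limma adjusted p = 0.0289 over 4854 genes with such a pair, of which 13.1% were called). That call held without shSep15 2 (limma adjusted p = 0.0403) and was lost without any other array: without shSep15 1 or 3 the limma adjusted p was 0.0860 and 0.0998, and without control 1, 2 or 3 it was 0.0655, 0.0715 and 0.0586.

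Edem2 (1423695_at) read 9.59, 9.61 and 9.61 in shSep15 cells, against 9.10, 9.30 and 9.54 in control cells. The shSep15 arrays were nearly equal and all above the control arrays, which spread widely. The difference of 0.29 (SE 0.12, limma adjusted p = 0.147) passed only without control 3, at 0.40 (limma adjusted p = 0.0361). The other Edem2 probe set was below background in both groups, so it gives no reading.

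The derlins are membrane proteins that help clients across the ER membrane, and Derl1 fell on 3 of its 4 probe sets, while Derl2 and Derl3 had no called probe set. Whether the derlins differ from each other is not settled by these calls. The Derl1 probe set 1423082_at read 10.36, 10.26 and 10.38 in shSep15 cells, against 10.89, 10.89 and 10.79 in control cells. The groups were clearly apart, with 69.6% of the control signal left (log2 −0.52, SE 0.08, limma adjusted p = 0.0011). A 2nd probe set (1415693_at), drawn from the same source accession, read 10.74, 10.72 and 10.86 in shSep15 cells, against 11.19, 11.29 and 11.04 in control cells, a difference of −0.40 (limma adjusted p = 0.0084). Both calls held whichever array was left out. The probe set 1433563_s_at was lower by 0.42 (limma adjusted p = 0.0324), a call lost without shSep15 1, shSep15 2, control 1 or control 2 (limma adjusted p = 0.101, 0.120, 0.0657 and 0.115). The brightest one (1437723_s_at) differed by −0.26 with overlapping groups (limma adjusted p = 0.150), so a count by brightest probe set leaves Derl1 out. The mean of all 4 was lower by 0.40 (SE 0.09, limma adjusted p = 0.0076).

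Derl2 read 10.11, 9.99 and 10.13 in shSep15 cells, against 10.21, 10.40 and 10.23 in control cells, on its brighter probe set (1448438_at). All shSep15 arrays were below all control arrays, but the difference of −0.21 (95% interval −0.41 to −0.01) did not pass over all probe sets (limma adjusted p = 0.156). Its dimmer probe set differed by 0.03 (95% interval −0.33 to 0.40). The within-array difference of Derl1 minus Derl2, both at their brightest, changed by −0.05 (exact two-sided permutation p = 0.6). With 0.1 as the smallest p this test allows with 3 against 3 arrays, it could not have shown a difference. The Derl1 probe set in it is the one that was not called. Derl3, a derlin of secretory tissues, read 6.14, 6.41 and 6.14 in shSep15 cells, against 6.09, 6.10 and 6.20 in control cells, just above background. A change of a gene this dim would be compressed in these values.

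Herpud1, a membrane protein with a ubiquitin-like domain that organises the ligase complex, fell on both probe sets. The brighter one (1448185_at) read 10.93, 10.89 and 10.97 in shSep15 cells, against 11.59, 11.39 and 11.25 in control cells. The shSep15 arrays were close together and below all control arrays, of which control 3 came nearest. The log2 difference of −0.48 (SE 0.09) had a limma adjusted p of 0.0048, a remaining signal of 71.7%, and was called whichever array was left out, at −0.39 to −0.56. The other probe set (1435626_a_at) was lower by 0.40 (SE 0.11, limma adjusted p = 0.0301). It kept its call without control 3 (limma adjusted p = 0.0044) and lost it without shSep15 1, 2 or 3 (limma adjusted p = 0.0700, 0.118 and 0.0830) or without control 1 or 2 (limma adjusted p = 0.105 and 0.112).

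**Figure D2:**
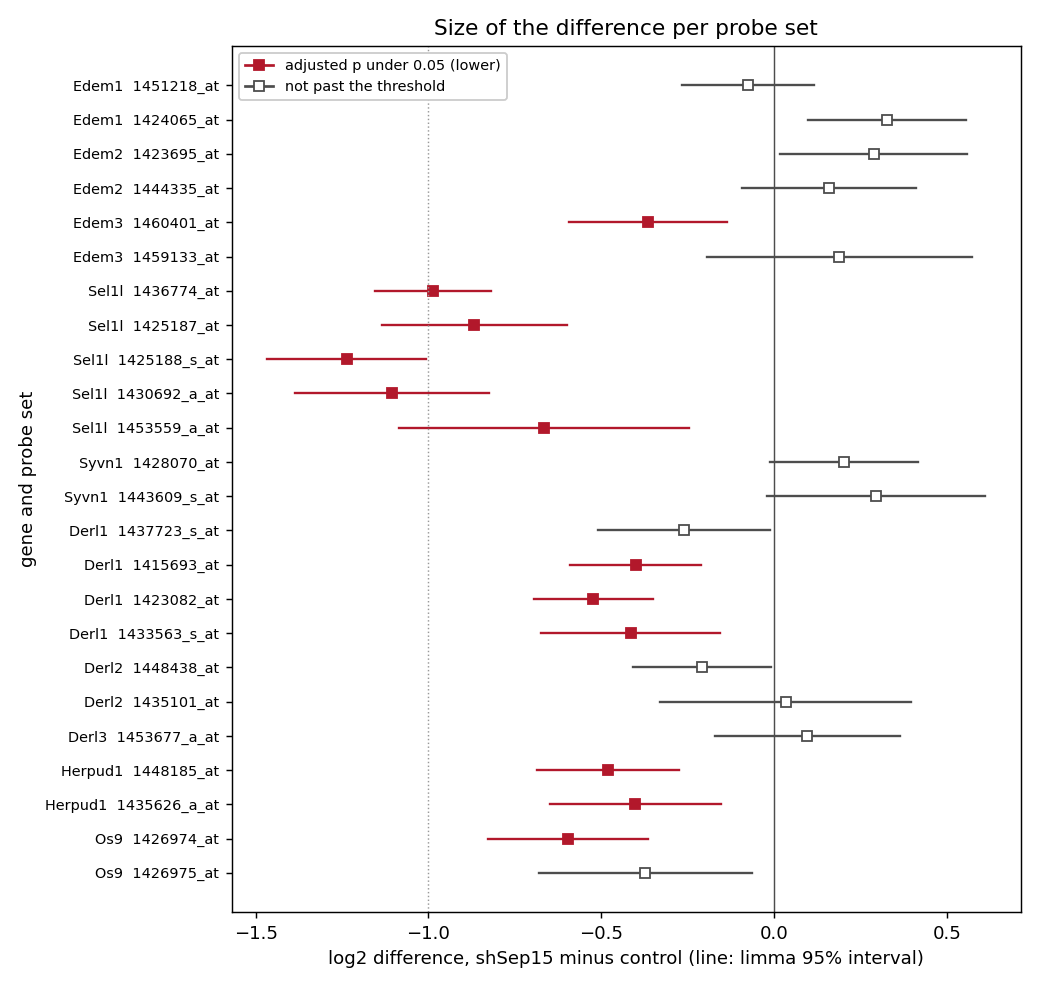
Log2 difference, shSep15 minus control, of each of the 24 probe sets (squares) with its limma 95% interval (lines); filled squares passed an adjusted p of 0.05, and the dotted line marks a halving at −1. The 5 probe sets of Sel1l lie between −0.67 and −1.24, the other 7 filled squares between −0.36 and −0.60, and no filled square lies right of 0.

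Promoters of the members were searched for elements of the UPR. The 4 printed are those of Sel1l, which fell most, and of the 3 members that hold a match: Herpud1, which fell, and Syvn1 and Derl3, which were not called. Each is the 250 bases ahead of the start annotated by RefSeq on GRCm38.p6, written 5′ to 3′ along the gene, with matches in capitals.
Sel1l, chr12:91849158-91849407, minus strand: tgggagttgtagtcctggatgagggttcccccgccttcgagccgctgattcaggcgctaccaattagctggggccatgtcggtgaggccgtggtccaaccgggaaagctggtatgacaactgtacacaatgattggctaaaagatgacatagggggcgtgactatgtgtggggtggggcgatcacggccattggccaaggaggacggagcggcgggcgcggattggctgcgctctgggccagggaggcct
Herpud1, chr8:94386179-94386428, plus strand: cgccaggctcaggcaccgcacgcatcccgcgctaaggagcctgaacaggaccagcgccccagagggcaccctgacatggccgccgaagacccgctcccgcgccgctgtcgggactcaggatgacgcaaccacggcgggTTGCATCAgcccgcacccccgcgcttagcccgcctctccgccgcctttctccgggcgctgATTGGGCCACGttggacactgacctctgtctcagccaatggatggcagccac
Syvn1, chr19:6046326-6046575, plus strand: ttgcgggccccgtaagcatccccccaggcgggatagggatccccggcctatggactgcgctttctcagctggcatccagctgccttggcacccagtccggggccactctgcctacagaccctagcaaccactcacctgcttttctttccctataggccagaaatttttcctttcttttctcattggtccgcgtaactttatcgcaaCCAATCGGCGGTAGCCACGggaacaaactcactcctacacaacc
Derl3, chr10:75893148-75893397, plus strand: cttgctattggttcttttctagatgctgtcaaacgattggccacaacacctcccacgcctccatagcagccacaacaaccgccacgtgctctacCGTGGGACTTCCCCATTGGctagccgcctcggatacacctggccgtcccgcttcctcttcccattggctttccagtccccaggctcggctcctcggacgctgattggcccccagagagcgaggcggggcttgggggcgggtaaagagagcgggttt

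The search covered both strands of 10 windows from 9 of the 10 genes and all 32851 promoter windows of the same length. Derl1, which fell on 3 of its 4 probe sets, had no window and was not searched. The ER stress element (ERSE, CCAAT and CCACG with 9 bases between them), through which ATF6 and XBP1 act with NF-Y, was found in Syvn1 and, on the opposite strand, in Derl3, and in 0.113% of all windows. Its short form ERSE-II (ATTGG and CCACG with 1 base between them) was found in Herpud1 and in 0.0304% of windows. A match had to lie whole within a window, and the Herpud1 window ends in CCAAT, 9 bases and CCAC. Whether the next base completes an ERSE there was not searched. The C/EBP-ATF element written as TTGCATCA, one of the forms that ATF4 binds, was found in Herpud1 as well and in 0.791% of windows. The XBP1 element written as TGACGTGG, held by 0.563% of windows, was in none of the members' windows. Of the 3 genes with a match, Herpud1 fell and Syvn1 and Derl3 were not called, Derl3 being just above background. Whether matches go with the values was not tested, since 3 genes and exact letters are too few to decide it. In Sel1l, Os9, Edem1, Edem2, Edem3 and Derl2 these letters were not found in the windows searched. The Edem1 window (chr6:108828391-108828640) lies inside the annotated gene, which starts at 108824045, and a Derl2 window lies inside its gene too. The Edem3 window runs past the start of its gene. The bases ahead of the Edem1 gene start were thus not searched.

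**Figure D3:**
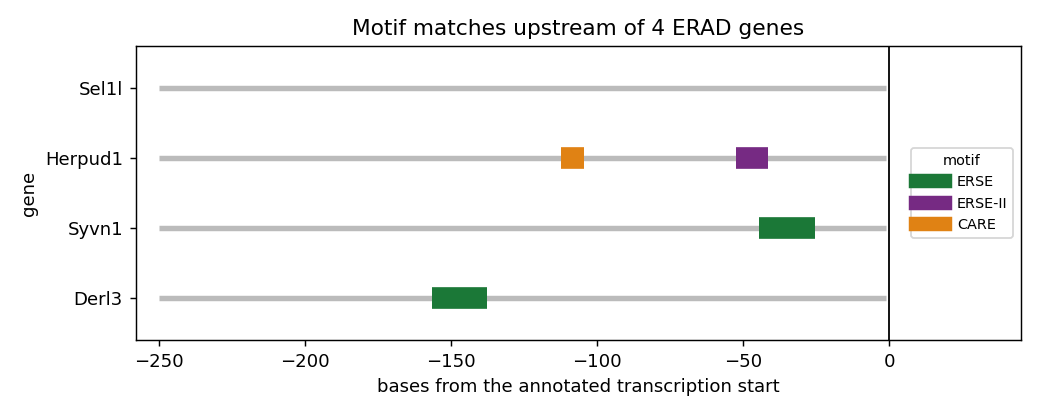
Positions of motif matches (coloured blocks) in the 250 bases ahead of the annotated start of 4 ERAD genes (rows), with the x axis in bases from that start. ERSE-II lies at −52 to −42 and the C/EBP-ATF element (CARE) at −112 to −105 in Herpud1, ERSE at −44 to −26 in Syvn1 and at −156 to −138 in Derl3, and none in Sel1l.

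The rest of the pathway moved in both directions. Among 12 genes of lumenal recognition and delivery, 4 were lower and 3 higher, with a median of −0.07, against 0.01 over all genes, of which 25% were called. With the mean of each gene's probe sets, 2 were lower. The co-chaperone Dnajb9 (ERdj4), which delivers clients to ERAD, read 10.46, 10.20 and 10.34 in shSep15 cells, against 11.25, 11.30 and 10.96 in control cells. Its groups did not overlap, and the difference was −0.84 (SE 0.11, limma adjusted p = 5.91e-04). The mannosidase Man1a was lower by 1.78, with its shSep15 mean below background, so that the size is not exact. The mannosidase Man1a2 was higher by 0.61 and the folding sensor Uggt1 by 0.55, but the mean of the probe sets of Uggt1 gave 0.23 (limma adjusted p = 0.0584).

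Among 28 measured membrane ligases, E2 enzymes and scaffolds outside the 10 genes, 9 were lower and 5 higher, with a median of −0.15. Over all genes, 12.8% were called lower and 12.2% higher. Ube2g2, a ubiquitin-conjugating enzyme of ERAD, read 10.11, 10.06 and 9.98 in shSep15 cells, against 11.64, 11.55 and 11.44 in control cells. Its arrays were well separated, with 35.5% of the control signal left (log2 −1.49, SE 0.08, limma adjusted p = 5.03e-06). Erlin1, a membrane scaffold for ERAD of the IP3 receptor, fell by 1.40, the intramembrane protease Rhbdd1 by 0.93 and Herpud2, the paralogue of Herpud1, by 0.83. The 5 that were higher, named after their values were seen, were the ligase Rnf5 (0.68), the E2 enzymes Ube2j1 (0.61) and Ube2j2 (0.37), the selenoprotein Selenos (0.53), which ties VCP to the derlins, and Ubac2 (0.50). For Ube2j2 and Ubac2, only 1 of the 2 probe sets above background was called.

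Among 25 measured genes of extraction, deglycosylation and shuttling, 8 were higher and 5 lower, against 12.2% and 12.8% of all genes. The list median was 0.00. The 5 lower became 2 without shSep15 3, and 3 without shSep15 2 or without control 1. The VCP cofactor Ubxn1 was higher by 1.20 and the ubiquilin shuttle factor Ubqln2 by 1.08, though only 1 of the 2 probe sets of Ubqln2 above background was called. Plaa rose by 0.58 and Get4 by 0.54. Vcp itself, named after its value was seen, read 12.70, 12.70 and 12.64 in shSep15 cells, against 12.30, 12.22 and 12.39 in control cells. It was higher on every shSep15 array, by 0.38 (SE 0.05, limma adjusted p = 0.0011).

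**Figure D4:**
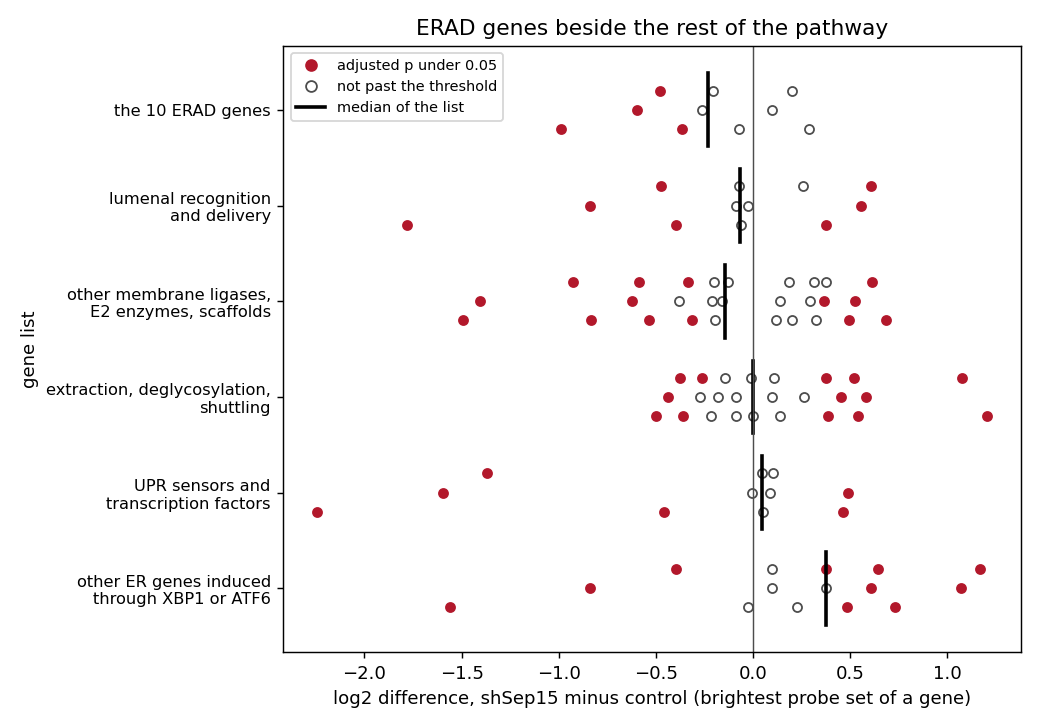
Log2 difference, shSep15 minus control, of each gene by its brightest probe set (points; filled where the adjusted p was under 0.05) in the 10 ERAD genes and 5 further lists (rows), with each list's median as a bar. The medians run from −0.23 for the 10 ERAD genes to 0.37 for the other ER genes induced through XBP1 or ATF6, and filled points lie on both sides of 0 in every list except the 10 ERAD genes.

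Of 11 sensors and transcription factors of the UPR, 4 were lower and 2 higher, against 12.8% and 12.2% of all genes. The list median was 0.04, and 1 gene was higher without shSep15 1. Atf6, which is cut to release a transcription factor of ER chaperone and ERAD genes, read 9.46, 9.58 and 9.46 in shSep15 cells, against 10.90, 10.81 and 10.90 in control cells. The groups did not overlap, and 38.7% of the control signal was left (log2 −1.37, SE 0.08, limma adjusted p = 9.35e-06), with all 3 of its probe sets called lower. Ern1, the sensor that splices Xbp1 mRNA, was lower by 1.60 on its brightest probe set, and 2 of its 3 probe sets above background were called. The stress factor Ddit3 was lower by 2.24, with 1 of its 2 probe sets called, and Creb3 was higher by 0.49. Xbp1 read 11.52, 11.46 and 11.55 in shSep15 cells, against 11.40, 11.60 and 11.37 in control cells. Its groups overlapped (log2 0.05, 95% interval −0.12 to 0.22), and these probe sets do not tell spliced from unspliced Xbp1.

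Of 15 other ER genes known to be induced through XBP1 or ATF6, 7 were higher and 3 lower, with a median of 0.37, where 12.2% of all genes were called higher and 12.8% lower. Sec24d, a coat protein of vesicles that leave the ER, was higher by 1.17, and Sdf2l1, a cofactor of the chaperone HSPA5, by 1.07. Sdf2l1 read 8.82, 8.86 and 8.99 in shSep15 cells, against 7.64, 8.02 and 7.79 in control cells, with no overlap (limma adjusted p = 3.67e-04). Wfs1, a membrane protein of the ER, was lower by 1.56, and Dnajb9 counts among this list too. The lists are brighter than the genes they are set beside. Both group means were below background in 7062 of all 18193 genes. The same was true of 1 gene of lumenal recognition, 2 of extraction and shuttling, and 0 in each other list. Of probe sets above background, 17.9% were called lower and 18% higher. Lists were described by counts and medians only, so no list was tested against another.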

How the data were processed

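RNA of 3 shSep15 and 3 control samples was measured on 1 Affymetrix Mouse430_2 array each. The authors deposited log2 values, one for each probe set on an array, computed by RMA per the submitters' processing notes (version and filters not given in the sources used here). RMA equalises the arrays, so a change in total RNA per cell would not show, and it gives no detection call. The values were used as deposited. Of 45101 probe sets, 64 array controls were left out. Symbols came from the platform annotation and were updated through the RefSeq table of GRCm38.p6 (34741 of 34945 single-symbol probe sets found). Probe sets were fitted in limma 3.58.1 in R 4.3.3 (eBayes with trend, group as the only term), two-sided, with Benjamini-Hochberg adjustment over 45037 probe sets at 0.05. Background was set at the 95th percentile over 80 olfactory and vomeronasal receptor probe sets, each averaged over the arrays. The fit was tested on simulated data. Precision is limited by 3 arrays per group. The members, gene lists, tests and motifs were chosen with earlier results of these data known. Named were all members, the targeted gene and up to 4 called genes per list with the greatest differences; others are marked. Some listed genes are not reported here.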

Additional observations from a re-analysis of the deposited data

How the results depend on the processing

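The count of member probe sets lower in shSep15 was 12 with all arrays. It stayed at 12 without the intensity trend, with arrays shifted to the same median, after quantile normalization and among probe sets above background only, and ran from 8 to 11 when 1 array was left out. The count higher was 0, but 1 after quantile normalization, 1 among probe sets above background only, and 0 to 1 when 1 array was left out; by brightest probe set, the genes higher were 0 and 0 to 1. Leaving out 1 array gave 2 to 5 lower genes of extraction, deglycosylation and shuttling, against 5, and 1 to 2 higher UPR genes, against 2. With the mean of probe sets, 2 genes of lumenal recognition and delivery were lower, against 4. The genes whose 2 probe sets differed numbered 638, and 269 to 506 when 1 array was left out. With the replicate number as a block, 416 did, the probe set difference of Edem1 was no longer called (limma adjusted p = 0.0603), and 10 member probe sets were lower, Sel1l 1453559_a_at (limma adjusted p = 0.0502) and Derl1 1433563_s_at (limma adjusted p = 0.0505) being lost. The labels give same-numbered samples no link beyond the number. Their deviations from the group means correlated at 0.40, −0.20 and −0.06, and those of differently numbered samples at −0.39 to 0.44. Whether samples shared handling cannot be told from these values. The difference of Derl2 1435101_at, never called, 0.0333 with all arrays, ran from −0.0435 to 0.184 when 1 array was left out and was below 0 without shSep15 1, shSep15 3 or control 3. Causes of these shifts were not tested. Some of the settings also leave fewer arrays or probe sets in the fit. Of 578 single probe set and gene values under the alternatives, 545 kept direction and call.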
